A study of Arabidopsis thaliana with 12 samples.

Results

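CUTA (AT2G33740) and GLDH (AT3G47930) were read by a single probe each, probe 3247 for CUTA and probe 592 for GLDH. They were found by their symbols among the probes annotated to a single gene, and are 2 of 691 such loci on an array of 3439 probes. Total RNA was measured in 12 samples of wild-type Arabidopsis thaliana, all of the ecotype Wassilevskija: 6 from plants given 100 mM proline for 48 h, a treatment meant to bring cellular proline to toxic levels, and 6 from water plants without treatment. Tissue, age and growth conditions are not in the labels, nor is whether each sample is a separate plant or culture. Both genes were chosen by their lower values with proline in these same 12 samples, so their differences between proline and water are described and not tested.

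CUTA is a small chloroplast protein that binds copper and takes its name from the bacterial copper tolerance protein CutA. GLDH, L-galactonolactone dehydrogenase, carries out the last step of the main plant route to ascorbate (vitamin C). It sits in the mitochondria, where it passes its electrons to cytochrome c, and it is also needed to assemble respiratory complex I. Copper and ascorbate meet in the handling of reactive oxygen, since ascorbate peroxidases spend ascorbate on hydrogen peroxide and copper-zinc superoxide dismutases need copper.

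The deposited values are relative intensities on a linear scale that starts at 0, and their scaling is not given in the sources used here. The median of the values above 0 lay between 0.0335 and 0.0963 in the proline samples and between 0.0325 and 0.0812 in the water samples, so the arrays were not on a common level. The proline arrays had 352 to 424 probes listed at 0, against 153 to 235 on the water arrays. Within a group, replicates 1 and 2, 3 and 4, and 5 and 6 resembled each other most: across features these partners correlated at 0.873 to 0.946, and samples of the same group in other pairs at 0.812 to 0.905. They are called pairs here, and the 12 samples cannot be taken as 12 independent ones. Of 12 leaf, 9 root and 8 seed and pollen marker loci, 0 had a probe of their own, so the tissue was not checked.

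CUTA was lower in every proline sample than in any water sample. Its deposited value in the proline samples was 1.14 and 1.401 in replicates 1 and 2, 1.82 and 1.81 in replicates 3 and 4, and 1.31 and 1.41 in replicates 5 and 6. In the water samples it was 2.18 and 2.15, then 4.61 and 4.43, then 2.16 and 2.25 in the same order. On these deposited values the proline samples stayed within a narrow range, while water replicates 3 and 4 stood well above the other water samples. On the normalized log2 values given below the spread was alike, with an SD of 0.50 with proline and 0.48 in water. The mean deposited value was 1.48 ± 0.274 with proline and 2.96 ± 1.21 in water (SD, n = 6 each). Of the 2337 features with a value above 0 in all 12 samples, 53 (2.27%) were lower without overlap in the same way.

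GLDH was lower with proline within each pair, but the groups as a whole overlapped. Its deposited value in the proline samples was 0.0310 and 0.0351 in replicates 1 and 2, 0.102 and 0.0918 in replicates 3 and 4, and 0.0430 and 0.0404 in replicates 5 and 6. In the water samples it was 0.0750 and 0.0737, then 0.237 and 0.208, then 0.134 and 0.106 in the same order. Proline replicates 3 and 4 were above water replicates 1 and 2. Over each group the mean was 0.0573 ± 0.0313 with proline and 0.139 ± 0.0690 in water (SD, n = 6 each). Inside each pair both proline values were below both water values, for GLDH and for CUTA, as they were for 210 of the 2337 features (8.99%). In bulk RNA, fewer cells that express a gene and less of its RNA per cell cannot be told apart.

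**Figure D1:**
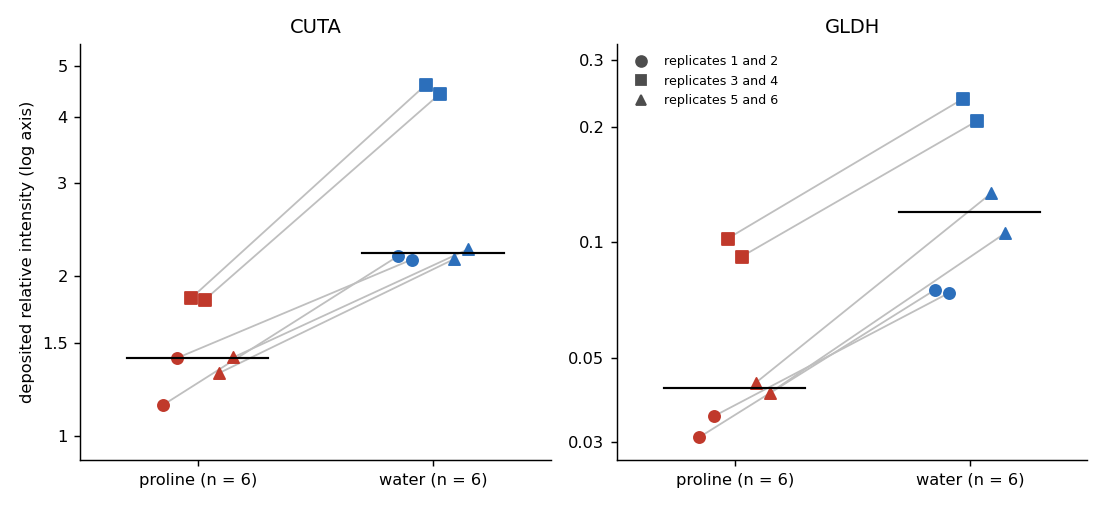
Deposited relative intensity of CUTA and GLDH (log axis) in the 6 proline and 6 water samples. Each point is a sample, shapes mark the pairs, grey lines join samples with the same replicate number, and black bars are medians (1.404 and 2.22 for CUTA, 0.0417 and 0.120 for GLDH). All 12 lines climb towards water, and only for GLDH do the groups overlap.

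Set against the water sample with the same number, GLDH in proline stood at 32.0% to 47.6% of water and CUTA at 39.4% to 65.1%. For CUTA the lowest shares, 39.4% and 40.8%, were those of replicates 3 and 4, where water was brightest, and the other 4 lay between 52.3% and 65.1%. For GLDH the lowest shares were those of replicates 5 and 6, at 32.0% and 38.3%.

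After quantile normalization, which gives every array the same distribution of log2 values, the mean log2 value of CUTA was 0.34 ± 0.50 with proline and 1.66 ± 0.48 in water (SD, n = 6 each). The log2 difference was -1.32 ± 0.28 (SE), which is 2.49-fold lower. For GLDH the mean log2 value was -4.34 ± 0.99 with proline and -2.98 ± 0.92 in water (SD, n = 6 each). Its log2 difference was -1.36 ± 0.55 (SE), 2.57-fold lower. CUTA remained without overlap on this scale, as 146 of the 2337 features did (6.25%), and GLDH again overlapped between the groups and not within the pairs, as 202 features did (8.64%). Counting both kinds, 348 features were lower without overlap inside every pair (14.9%). Both SEs take the 12 samples as independent.

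On this scale GLDH had a log2 difference of -1.45 in replicates 1 and 2, -1.21 in replicates 3 and 4 and -1.42 in replicates 5 and 6, which is an SD of 0.13 over the 3 pairs. For CUTA the log2 differences were -1.40, -1.80 and -0.76 in the same order, an SD of 0.52. CUTA was thus 3.47-fold lower in replicates 3 and 4 and 1.69-fold lower in replicates 5 and 6. Which gene was the more even depended on the normalization: the SD over the pairs was 0.22 for CUTA and 0.28 for GLDH with arrays centred on their median, 0.40 and 0.30 with cyclic loess, and 0.34 and 0.19 with none.

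The levels themselves varied from pair to pair more for GLDH than for CUTA. The mean normalized log2 value of GLDH in replicates 1 and 2 was -5.61 with proline and -4.16 in water. In replicates 3 and 4 it was -3.61 with proline and -2.40 in water, and in replicates 5 and 6 it was -3.82 with proline and -2.39 in water. The highest and lowest pair thus lay 1.999 log2 units apart with proline and 1.76 apart in water, more than the difference between the groups. For CUTA that gap was 1.08 with proline and 1.08 in water. Partners within a pair were close: they differed by 0.07 to 0.32 log2 units for GLDH and by 0.00069 to 0.31 for CUTA, where the median feature differed by 0.19 to 0.34 depending on the pair and the group. The 0.32 of GLDH was in water replicates 5 and 6, where the median feature differed by 0.23. Every other gap of GLDH and every gap of CUTA was below that of the median feature.

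The mean difference of CUTA depended more on how the arrays were put on a common level than that of GLDH. Without normalization between arrays CUTA was 1.91-fold lower with proline (log2 difference -0.93 ± 0.25, SE, n = 6 and 6) and GLDH 2.45-fold lower (-1.29 ± 0.42). With arrays centred on their median the log2 differences were -0.99 for CUTA and -1.35 for GLDH, and with cyclic loess -1.19 and -1.31. In replicates 5 and 6 the CUTA difference lay between -0.77 and -0.70 under all 4 normalizations. In replicates 1 and 2 it ran between -1.40 with quantile normalization and -0.78 with none. All 12 pair differences of CUTA and all 12 of GLDH were below 0.

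**Figure D2:**
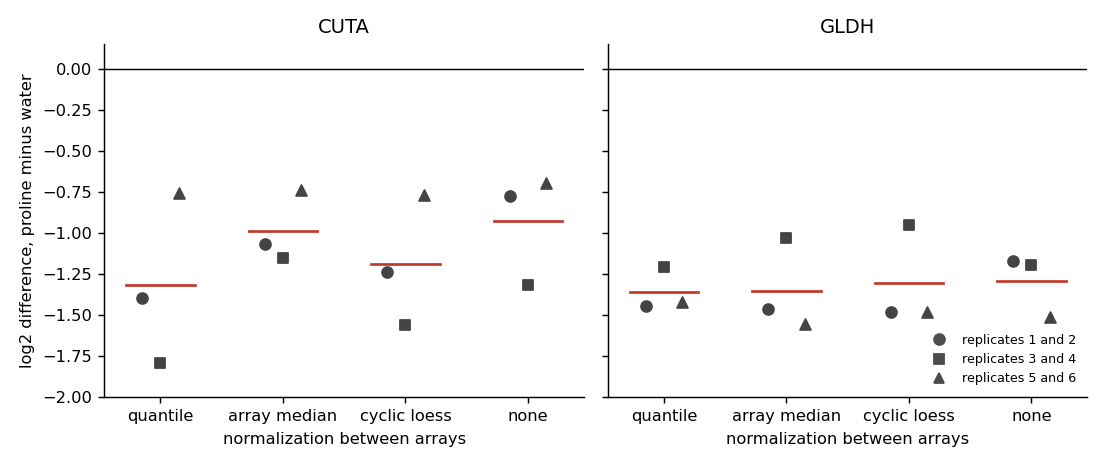
Log2 difference, proline minus water, of CUTA and GLDH in each pair under 4 normalizations between arrays. Points are the differences between the pair means and red bars the mean of the 3 pairs. Every point is below 0, between -1.80 and -0.70 for CUTA and between -1.56 and -0.95 for GLDH.

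A probe's place among all features of its own array does not depend on any rescaling that keeps their order. CUTA lay at the 93.8th to 97.4th percentile of its array in the proline samples and at the 97.8th to 99.1st in the water samples. GLDH lay at the 26.6th to 66.0th percentile with proline and at the 49.6th to 81.9th in water. In replicates 1 and 2 GLDH was at 26.6 and 28.1 with proline, against 53.0 and 49.6 in water. In replicates 3 and 4 it was at 66.0 and 63.0 with proline, against 80.7 and 78.8 in water, and in replicates 5 and 6 at 60.6 and 59.4, against 81.9 and 78.3. The percentiles of CUTA do not overlap between the groups, and those of GLDH overlap between the groups but not within pairs.

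By the mean normalized log2 value, CUTA ranked 126 of 3082 features in proline and 46 of 3254 in water, where it was brighter than 98.6% of the other features. GLDH ranked 1611 of 3082 in proline and 893 of 3254 in water, brighter than 47.7% and 72.6% of the others. Only features with 4 or more values above 0 in a group were ranked there, so the ranked features differ between the groups. With all features and zeros kept, the mean percentile of GLDH within the array was 50.6 with proline and 70.4 in water. Among the 652 loci with a single gene name ranked in water, CUTA came 8 and GLDH 153. These are ranks of probe brightness, which also depends on the probe, so they do not order the transcripts by abundance. The named neighbours of CUTA in the water rank were AT4G17070 above it (mean log2 value 1.76) and AT1G62250 below it (1.62). CUTA itself was at 1.66 with an SD of 0.48 over the water samples. AT1G62250 varied with CUTA over the 12 samples (r = 0.977), so this SD does not measure the spread of their difference. The neighbours of GLDH were AT1G13370 at -2.98 and AT5G52530 at -2.98, against -2.98 for GLDH. Whether CUTA and GLDH differ in level from their neighbours was not tested.

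The quantile-normalized log2 differences of CUTA and GLDH were placed among those of features of like brightness in water. Among the 95 tested features around CUTA in the water rank (up to 50 on either side), the median log2 difference was -0.27 and 2 were as low as CUTA or lower. Among the 100 around GLDH the median was -0.25 and 6 were as low or lower. Over all 3045 tested features, 217 were as low as CUTA or lower and 201 as low as GLDH or lower, and the median was -0.16. For GLDH the share among its neighbours was thus close to the share over all features. CUTA and GLDH were chosen for being low, so these counts only place them.

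**Figure D3:**
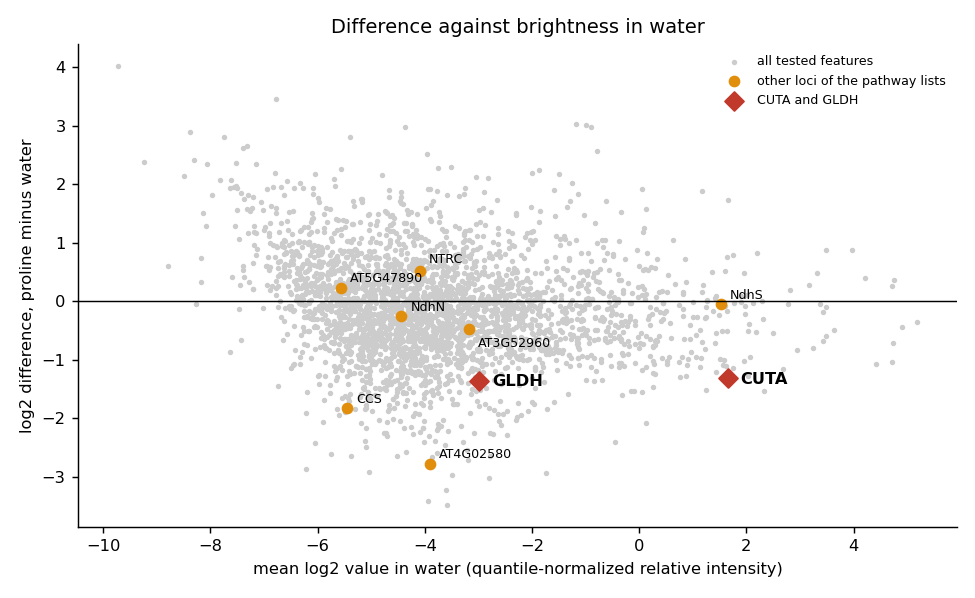
Log2 difference, proline minus water, against the mean log2 value in water after quantile normalization. Grey points are the 3045 tested features, orange points the 7 other tested loci of the copper, redox and complex I lists, and red diamonds CUTA at -1.32 and GLDH at -1.36, with CUTA far to the bright side.

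The profiles of CUTA and GLDH over the 12 samples were alike (Pearson r = 0.884 on normalized log2 values). This r holds the shared difference between the groups as well as the differences between pairs. Once the group means were subtracted, r was 0.845 over 12 samples. It fell to -0.28 without replicates 1 and 2, and was 0.914 without replicates 3 and 4 and 0.949 without replicates 5 and 6. The likeness within groups therefore rested on replicates 1 and 2, in which both genes were low in both groups. With no normalization between arrays it was 0.858 with all samples, 0.825 without replicates 1 and 2 and 0.313 without replicates 3 and 4, so which pair carried it depended on the scaling. The points share arrays, scaling and pairs.

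**Figure D4:**
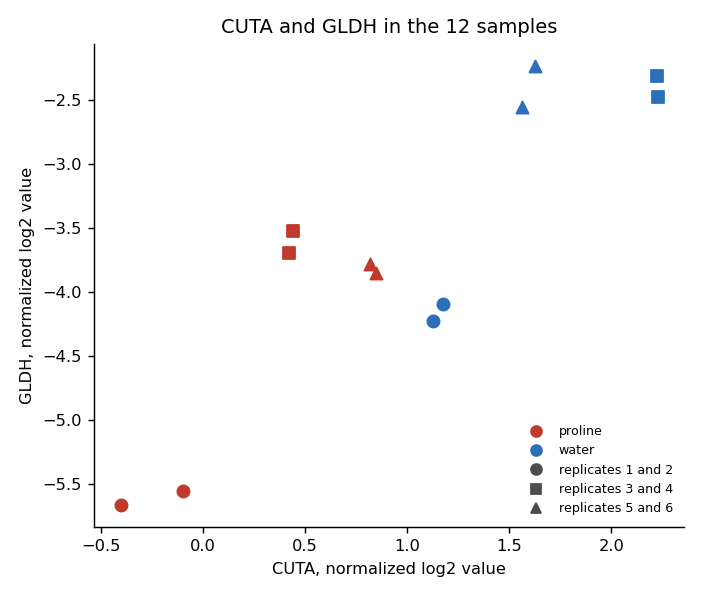
Normalized log2 value of GLDH against that of CUTA in the 12 samples, with proline in red and water in blue and shapes for the pairs. Replicates 1 and 2 have the lowest GLDH values of each group (-5.66 and -5.55 with proline, -4.09 and -4.22 in water), and partners lie next to each other.

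Other loci followed each gene more closely. Of 445 other loci with a single gene name and 12 values above 0, 18 correlated better with CUTA than GLDH did and 19 correlated better with GLDH than CUTA did. The median r with CUTA was 0.216, and 12 loci had an r over 0.9. The closest to CUTA were AT1G68660 (r = 0.983), AT1G62250 (0.977), AT3G54550 (0.966), AT4G27390 (0.949) and AT1G28150 (0.937). Among these, AT1G68660, AT1G62250, AT3G54550 and AT4G27390 were lower with proline in limma over all features, by log2 differences of -1.11, -1.10, -1.05 and -1.12 (adjusted p = 0.01005, 0.0179, 0.0229 and 0.0192), where 401 of 3045 features passed (13.2%). AT1G28150 was at -0.65 and did not pass (0.0784, and 0.0543 with the replicate number as a block, which changed none of these 5 calls). With the pair within its group as a random block, where 82 of all 3045 features passed (2.69%), AT1G68660 alone of these 5 did (adjusted p = 0.0391), and AT1G62250, AT3G54550, AT4G27390 and AT1G28150 were at 0.0618, 0.0902, 0.0816 and 0.225. These loci were picked for their likeness to a gene that was low with proline, so their own differences are no independent result.

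The closest to GLDH were AT4G14050 (r = 0.945), AT2G26680 (0.945), LPA19 (0.943), AT2G47830 (0.938) and AT1G15140 (0.935). With no normalization between arrays these r values were between 0.663 for AT2G26680 and 0.901 for AT4G14050. LPA19 (AT1G05385) is a chloroplast protein that takes part in the assembly of photosystem II. The median r with GLDH over the 445 loci was 0.196, and 13 loci had an r over 0.9. None of these 5 passed in limma over all features. Their log2 differences lay between -1.04 for AT2G47830 and -0.54 for AT2G26680, with adjusted p between 0.0604 and 0.142. With the replicate number as a block AT4G14050, LPA19, AT2G47830 and AT1G15140 passed (adjusted p = 0.0248, 0.0385, 0.0258 and 0.0240), where 436 of 3045 features passed (14.3%), and AT2G26680 did not (0.0658). With the pair as a random block none of the 5 passed (0.180 to 0.321). They too were picked for likeness to a gene that was low with proline, so these calls are no independent result.

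With the group means subtracted, the closest to CUTA were AT1G68660 (r = 0.958), AT4G31470 (0.954), LpxA (0.953), AT1G62250 (0.928) and AT4G30740 (0.919). LpxA (AT4G29540) is an acyltransferase of a pathway related to bacterial lipid A synthesis. Without replicates 1 and 2 these r values were between 0.850 for AT4G30740 and 0.924 for LpxA. The closest to GLDH on the same measure were AT2G06040 (0.941), AT1G78620 (0.927), AT4G05030 (0.925), AT1G62250 (0.915) and AT2G35490 (0.913). On quantile-normalized values without replicates 1 and 2 their r fell to 0.052, -0.094, -0.091, -0.56 and 0.185. On that scale these likenesses to GLDH rested on that pair, while those to CUTA did not. Leaving out a pair was not repeated for these loci under other normalizations. With no normalization and all samples, the r values with GLDH were between 0.694 for AT1G78620 and 0.899 for AT2G06040. AT1G62250 stood among the closest loci to both genes with the group means subtracted.

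The other genes of copper handling, ascorbate, redox defence and complex I give the setting. Of 40 loci listed for copper handling, 1 besides CUTA had a probe of its own. Of 21 loci of ascorbate synthesis 0 besides GLDH had one, and of 22 loci of ascorbate use, recycling and transport 0 had one. Of 17 redox loci 4 had one, and of 35 loci of complex I 4 did, among them NdhS and NdhN, which matched the search for NADH dehydrogenase but belong to the chloroplast NDH complex. CCS stood on both the copper and the redox list, so 8 loci were measured besides CUTA and GLDH. Of these 7 had enough values to be tested, and 0 rose and 0 fell in limma over all features (adjusted p under 0.05). Of all 3045 tested features 401 passed (13.2%). At an unadjusted p under 0.05 in limma it was 1 of the 7, and 939 of all 3045 tested features. The median log2 difference of the 7 was -0.26, 5 being below 0 and 2 above, against -0.16 over all tested features.

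CCS (AT1G12520), the chaperone that hands copper to copper-zinc superoxide dismutase, was the other copper gene. Its deposited value in the proline samples was 0.000556 and 0 in replicates 1 and 2, 0.0234 and 0.0190 in replicates 3 and 4, and 0.0114 and 0.00336 in replicates 5 and 6. In the water samples it was 0.0660 and 0.0522, then 0.0217 and 0.0295, then 0.0117 and 0.00633 in the same order. Proline replicates 1 and 2 were at or near the floor where their water counterparts were brightest, and the groups overlapped in the other pairs. The log2 difference was -1.83 ± 1.11 (SE, 5 and 6 values, the sample at 0 left out; adjusted p = 0.286 in limma). Without replicates 1 and 2 it was -0.095, so the value of CCS rests on that pair. In replicates 3 and 4 the log2 difference of CCS was 0.19, where that of CUTA was -1.80.

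AT4G02580, held in the complex I list by its locus name, had the most negative log2 difference of the 7 tested loci. Its deposited value in the proline samples was 0 and 0.000527 in replicates 1 and 2, 0.0178 and 0.00918 in replicates 3 and 4, and 0.0133 and 0.0296 in replicates 5 and 6. In the water samples it was 0.0551 and 0.0381, then 0.174 and 0.0992, then 0.0426 and 0.0618 in the same order. On deposited values no proline sample reached any water sample. This held for 2 of the 8 loci, AT4G02580 and SRX, and for 70 of all 3438 features with zeros kept (2.04%). After quantile normalization the groups of AT4G02580 overlapped. Proline replicate 6 was then at -4.24, above water replicates 1 and 2 at -4.66 and -5.32. The log2 difference was -2.77 ± 1.05 (SE, 5 and 6 values, the sample at 0 left out; adjusted p = 0.0973 in limma). It passed with the replicate number as a block (adjusted p = 0.0438) and not with the pair as a random block (0.184) or with pair means (0.355). Its pair differences were -6.35, -3.04 and -1.27. The -6.35 rests on proline replicate 2 alone, near the floor at 0.000527, since replicate 1 was at 0 and left out. More probes were listed at 0 on the proline arrays than on the water arrays, whose part in this result was not tested.

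The other complex I locus, AT5G47890, had a log2 difference of 0.23 ± 0.65 (SE, n = 6 and 6; adjusted p = 0.840 in limma). For the chloroplast NDH subunits it was -0.05 ± 0.21 for NdhS (adjusted p = 0.908) and -0.26 ± 0.25 for NdhN (0.504). In water NdhS (AT4G23890) was about as bright as CUTA, with mean log2 values of 1.53 and 1.66. With proline these values were 1.48 for NdhS and 0.34 for CUTA. The percentile of NdhS within the array was 98.3 to 98.4 in the proline samples and 97.6 to 98.9 in the water samples, so the groups overlapped. Whether NdhS and CUTA differ in their response was not tested.

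SRX (AT1G31170), the sulfiredoxin that restores overoxidized peroxiredoxins in the chloroplast, was listed at 0 in all 6 proline samples and was above 0 in all 6 water samples, at 0.00520 to 0.0468. With zeros taken as missing it could not be tested. With zeros kept it passed in limma at an offset of 0.01, where 459 of 3438 features passed. It also passed at an offset of 0.001, where 326 of 3438 did. In water replicates 1 and 2 SRX was near the floor, at the 9.7th and 7.6th percentile of the array. More probes were listed at 0 on the proline arrays than on the water arrays, whose part in this result was not tested. No fold is given against a group listed at 0. NTRC (AT2G41680), a chloroplast NADPH-dependent thioredoxin reductase, had deposited values of 0.0258 to 0.203 with proline (median 0.125) and 0.0313 to 0.130 in water (median 0.0517). The groups overlapped, and the log2 difference was 0.53 ± 0.42 (SE, n = 6 and 6; adjusted p = 0.410 in limma), with pair differences of 1.38, 0.50 and -0.30. AT3G52960, held in the redox list by its locus name, had a log2 difference of -0.47 ± 0.43 (adjusted p = 0.490), with pair differences of -1.50, -0.42 and 0.52. Neither locus kept a single direction over the 3 pairs.

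**Figure D5:**
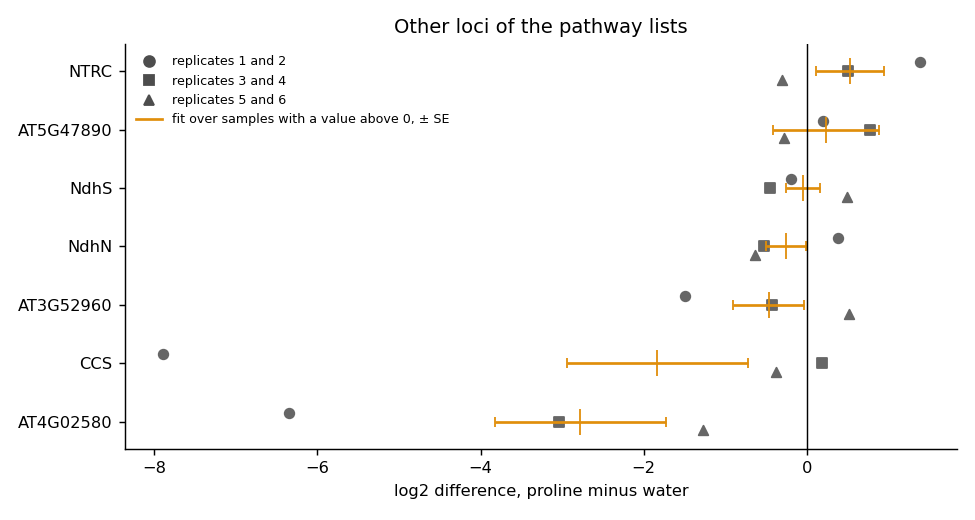
Log2 difference, proline minus water, of the 7 tested loci of the copper, redox and complex I lists other than CUTA and GLDH. Grey shapes are the pairs and the orange mark and bar the limma estimate with its SE. AT4G02580 alone is below 0 in all 3 pairs. For CCS and AT4G02580 the point of replicates 1 and 2 rests on a single proline value near the floor, as the partner is listed at 0.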

How the data were processed

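The authors deposited a single table of processed values for 3439 probes and 12 samples. Judged from the numbers, this deposited table holds a linear relative intensity; how the arrays were scanned, corrected for background and normalized is not given in the sources used here. The platform annotation, which can be old, gives a single gene for 692 probes, several for 870 and none for 1877. Symbols were updated by gene identifier to RefSeq (TAIR10.1), and 2 of the 692 identifiers had no match. No coordinates are given, as the table names no build, and probes with several genes gave no names.

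Values of 0 were taken as missing, the rest log2-transformed and quantile normalized, and probes of a locus averaged (3438 features). A feature needed 4 or more values per group to be tested, which left out 393. The test was limma 3.58.1 (lmFit, eBayes; R 4.3.3, statmod 1.5.0) without a covariate, with Benjamini-Hochberg adjustment over all 3045 features and a threshold of 0.05. The fit was run on simulated data to check that it returned the size of the simulated differences. The share of false calls in those runs is not reported here. The check is therefore no measure of the errors among the calls when partners are correlated. The samples may be technical repeats, in which case the p-values hold no biological spread, and the number of arrays limits the precision.

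The pairs are not stated in the labels. With the group means subtracted, proline and water samples with the same replicate number correlated at 0.134 to 0.256, and each of the 6 proline samples correlated best with the water sample of its number. The numbers were therefore taken to pair the samples, from the data and not from the design. Alternatives were the replicate number as a block, the pair as a random block within its group (duplicateCorrelation, correlation 0.593) or as a fixed block, pair means, other normalizations, filters and treatments of 0, and leaving out each pair and each sample.

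The members, the lists and the rule for named genes were chosen with earlier results of these data known. The rule named CUTA, GLDH, every measured locus of the copper, ascorbate, redox and complex I lists, the 5 closest loci to each member by Pearson r with and without the group means, and the neighbours in the water rank. Python 3.11.15 and matplotlib 3.10.9 drew the figures.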

Additional observations from a re-analysis of the deposited data

Results flagged for a closer look

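In 2 of the 19 groups of values examined, the gap between an extreme sample and its nearest neighbour took up more of the range than 95% of random gaps do. Chance alone gives such a gap in about 1 in 20 groups of independent samples, and the paired samples here are not independent. Proline replicate 1 lay at a normalized log2 value of -12.45 for CCS, where the nearest of the other proline samples with a value was at -7.13. Its partner, replicate 2, was listed at 0 and left out as missing, so the sample stands alone only with zeros left out. Water replicate 4 lay at -8.75 for AT5G47890, where the nearest water sample was at -5.35. No sample of CUTA or GLDH stood apart in this way. The check takes the gap to the nearest sample, so it cannot flag close partners that lie apart together. For GLDH, proline replicates 1 and 2 were at -5.66 and -5.55, and the next proline sample was at -3.85. Water replicates 1 and 2 were at -4.09 and -4.22, and the next water sample was at -2.55.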

How the results depend on the processing

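The log2 differences of CUTA and GLDH kept their sign, and their percentiles in water moved by less than the spread between samples, in all 26 alternatives. CUTA ran from -1.54 (without replicates 5 and 6) to -0.93 (no normalization between arrays), and GLDH from -1.63 (without water replicate 2) to -1.05 (zeros kept with an offset of 0.01). With the replicate block these values were -1.32 and -1.36, and 436 features passed, against 401 without it; 1 pathway locus passed with the block, AT4G02580, and it changed no other call on these loci; on normalized values it added 4 calls among the 5 closest loci to GLDH and changed none among the 5 closest to CUTA. The count of features was 20 with no normalization between arrays, 82 with the pair as a random block, 783 with it as a fixed block and 0 of 3269 with pair means in limma (472 at an unadjusted p under 0.05). It ran from 29 to 589 when a pair or a sample was left out: 29 without replicates 3 and 4, 193 without replicates 5 and 6, 245 without water replicate 3 and 248 without water replicate 4. The share of higher calls also moved: 168 of 401 were higher with quantile normalization, 214 of 342 with arrays centred on the median, 224 of 414 with cyclic loess and 17 of 20 with no normalization. The count of pathway loci was 2 with zeros kept and an offset of 0.01 (AT4G02580 and SRX), where 459 of 3438 features passed. With an offset of 0.001 it was 1 (SRX), where 326 of 3438 features passed. It was 1 with the pair as a fixed block (AT4G02580). Over the settings that leave out a pair or a sample it was 0 to 1, the 1 being AT4G02580 without replicates 1 and 2. Without that pair the correlations with GLDH after subtracting the group means turned to -0.0942 for AT1G78620, -0.0914 for AT4G05030 and -0.556 for AT1G62250, and their highest values with a pair or a sample left out were 0.985, 0.989 and 0.980. The cause of these changes was not tested. Signal over background could not be computed from the deposited values, so what brightness limits is unknown.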
